A study of Mus musculus with 12 samples.

Results

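The Cd209 genes of the mouse encode C-type lectins related to human DC-SIGN, the receptor CD209. The 7 genes described here, Cd209a to Cd209g, carry every Cd209 symbol in the annotation used and stand among 52355 genes to which the deposited transcript values were summed. They were chosen by their measured falls in RNA between tumor-draining and agonist libraries of this same data set, so their difference between agonist and tumor-draining libraries is given as a description, and no count in that comparison supports anything. In counts scaled for library depth, 6 of the 7 had a lower mean with the agonist. Cd209b went against that choice and had a higher mean. The mean of Cd209g, the scarcest member, was lower on that scale and nearly equal on the authors' length-scaled TPM scale (0.116 in tumor-draining and 0.119 in agonist libraries).

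The 12 RNA-seq libraries were made from CD11c cells of inguinal lymph nodes. CD11c, the integrin encoded by Itgax, marks dendritic cells and is also carried by some macrophages and lymphocytes. The healthy group (4 libraries) had no tumor and no agonist, the tumor-draining group (4 libraries) came from nodes draining a subcutaneous KPC tumor without agonist, and the agonist group (4 libraries) came from such nodes with a CD40 agonist. KPC tumors model pancreatic carcinoma, and CD40 is a receptor through which antigen-presenting cells are activated. Mouse strain, genotype and age, the number of animals behind a library, the dose, timing and kind of agonist, and any control treatment are not stated in the labels. Nor do they state whether the libraries of a group are separate animals, and the p-values then measure only how these samples spread, which may be technical. Each library title starts with a prefix that recurs once per group, and this prefix numbers the replicates 1 to 4 below and pairs libraries across groups. Estimated counts totalled 32626784 to 56320661 per library. Itgax lay between 177 and 339 TPM (the authors' transcript abundance, a level per transcript length) in all 12 libraries and passed the test in neither comparison (log2 fold change 0.22, adjusted p = 0.809, for tumor-draining against healthy, and -0.41, adjusted p = 0.431, for agonist against tumor-draining, by the quasi-likelihood test of edgeR, adjusted after Benjamini and Hochberg over all genes, which gave all adjusted p-values below unless another tool is named).

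CD209 lectins are type II membrane proteins whose carbohydrate recognition domain binds mannose- or fucose-bearing glycans in a calcium-dependent way. Human DC-SIGN takes up pathogens and glycoproteins, binds ICAM proteins on other cells, and signals through kinases that modify cytokine output. The human genes CD209 and CLEC4M correspond in the mouse to a cluster of duplicated genes, known as DC-SIGN and the SIGNR genes, which differ in the cells that express them. In lymph nodes Cd209b (SIGNR1) is known from medullary and subcapsular sinus macrophages, and Cd209a from monocyte-derived and type 2 dendritic cells.

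The 7 genes lie on chromosome 8 of GRCm38 (mm10) between 3743397 and 4137707, a stretch of 394 kb, and 6 of them are read from the minus strand. From left to right they are Cd209a (chr8:3743397-3748984), Cd209e (chr8:3847965-3854309), Cd209d (chr8:3871824-3878555), Cd209b (chr8:3917655-3926844), Cd209c (chr8:3940222-3954746), Cd209f (chr8:4102787-4105835) and Cd209g (chr8:4134098-4137707). To show what the members share and how they differ at the start of transcription, the 150 bases before the RefSeq start site are printed 5′ to 3′ on the gene's own strand (RefSeq, GRCm38.p6). The first 3 belong to the members with the largest negative fold changes among the values that chose them, the fourth to the member that was higher, and the last 2 to the most similar pair. Capitals mark matches to the motifs searched.
Cd209a, chr8:3748985-3749134, minus strand: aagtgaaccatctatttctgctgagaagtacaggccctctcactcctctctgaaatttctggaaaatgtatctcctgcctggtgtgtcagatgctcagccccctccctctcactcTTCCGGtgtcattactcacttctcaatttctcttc
Cd209d, chr8:3878500-3878649, minus strand: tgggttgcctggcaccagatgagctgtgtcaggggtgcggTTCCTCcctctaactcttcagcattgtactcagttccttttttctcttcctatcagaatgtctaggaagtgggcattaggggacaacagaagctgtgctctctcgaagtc
Cd209e, chr8:3854287-3854436, minus strand: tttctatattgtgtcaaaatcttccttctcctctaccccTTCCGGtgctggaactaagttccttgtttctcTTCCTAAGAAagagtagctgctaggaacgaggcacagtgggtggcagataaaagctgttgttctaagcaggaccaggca
Cd209b, chr8:3926842-3926991, minus strand: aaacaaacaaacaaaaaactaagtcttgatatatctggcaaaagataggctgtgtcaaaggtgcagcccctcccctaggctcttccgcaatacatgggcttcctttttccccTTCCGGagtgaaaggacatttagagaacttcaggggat
Cd209f, chr8:4105765-4105914, minus strand: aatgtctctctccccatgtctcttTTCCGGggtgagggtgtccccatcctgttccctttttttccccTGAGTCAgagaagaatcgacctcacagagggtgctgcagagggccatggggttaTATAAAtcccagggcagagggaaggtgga
Cd209g, chr8:4134586-4134735, plus strand: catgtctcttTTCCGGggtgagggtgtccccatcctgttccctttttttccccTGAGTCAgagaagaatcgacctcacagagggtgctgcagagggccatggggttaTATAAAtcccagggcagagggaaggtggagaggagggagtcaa

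Motifs were searched on both strands. The ETS-type letters CCGGAA, printed above as their reverse complement, stood in 5 of the 7 windows, 35 bases before the start in Cd209a, 38 in Cd209b, 111 in Cd209e, 126 in Cd209f and 140 in Cd209g, and in 9.23% of all 32851 RefSeq promoter windows of that length. This motif was added after the sequences had been read. The PU.1-type letters GAGGAA were found in Cd209d alone (14.47% of all windows), and the STAT6-type letters TTC and GAA, spaced by 4 bases, in Cd209e alone (3.17%). The letters TGANTCA (AP-1, 4.24%) and TATAAA (7.57%) stood in Cd209f and Cd209g alone. The interferon response element, GAAA and GAAA spaced by 2 bases (1.59%), had no match in the 7 windows. CCGGAA and GAGGAA share the core GGAA, and no matches overlapped in these windows. A match is a description of letters. CCGGAA stood both in windows of genes that were lower with the agonist and in that of Cd209b.

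The coding sequences showed which members could be confused in counting. Cd209f and Cd209g shared 90.45% of their aligned coding bases, with an identical run of 178 bases, whereas Cd209b and Cd209d shared 80.87%, Cd209d and Cd209e 76.59%, and Cd209a and Cd209d 71.11%. No stretch of 31 bases of Cd209a, Cd209b, Cd209d or Cd209e occurred in a transcript of any other gene. The estimated counts of Cd209a, Cd209b and Cd209e came out whole (within 0.001) in 12 of 12 libraries and those of Cd209d in 9 of 12, so that few or none of their reads were divided with another gene. Cd209f and Cd209g shared 760 such stretches with each other and none with other genes. Each had a whole count in 1 of 12 libraries, while their sum was whole in 12 of 12. Cd209c shared 414 stretches, 19.9% of its own, with 37 genes outside the family, and its count was whole in 0 of 12 libraries. Values of Cd209f against Cd209g, and the level of Cd209c, are therefore uncertain.

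In healthy nodes Cd209d and Cd209a were the most abundant members. On the TPM scale, which allows levels of different genes to be compared, Cd209d averaged 184 ± 68.4 and Cd209a 176 ± 44.8 (SD, n = 4 libraries here and below), and each was the higher of the pair in 2 libraries. Cd209e followed at 68.0 ± 26.6 and Cd209b at 43.1 ± 5.92, ranges that overlapped. Cd209c (9.98 ± 1.53), Cd209f (1.85 ± 0.41) and Cd209g (0.345 ± 0.094) stood below them, each apart from its neighbour in all 4 libraries. The 7 genes together made 352 to 652 TPM.

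The order was nearly kept in tumor-draining nodes and was not kept with the agonist. In tumor-draining libraries Cd209a averaged 124 ± 27.8 TPM, Cd209d 110 ± 45.0, Cd209e 26.8 ± 15.5, Cd209b 23.5 ± 3.85, Cd209c 6.68 ± 1.35, Cd209f 0.504 ± 0.264 and Cd209g 0.116 ± 0.046, and the pairs that overlapped were again the first and the second, and the third and the fourth. In agonist libraries Cd209b had the highest mean, 35.0 ± 6.10 TPM, before Cd209a (19.6 ± 11.3), Cd209d (14.1 ± 14.9), Cd209c (3.12 ± 1.35), Cd209e (2.61 ± 3.65), Cd209f (0.188 ± 0.154) and Cd209g (0.119 ± 0.123). The ranges of every neighbouring pair overlapped. In agonist replicate 4 Cd209a (36.4 TPM) and Cd209d (35.3 TPM) were above Cd209b (29.8 TPM). The share of Cd209b in the family's TPM was 9.52% ± 3.05 in healthy, 8.32% ± 1.55 in tumor-draining and 51.4% ± 18.0 (26.3% to 67.4%) in agonist libraries. The family's sum was 234 to 420 TPM in tumor-draining and 49.8 to 113 TPM in agonist libraries, so the agonist libraries lay below all others.

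**Figure D1:**
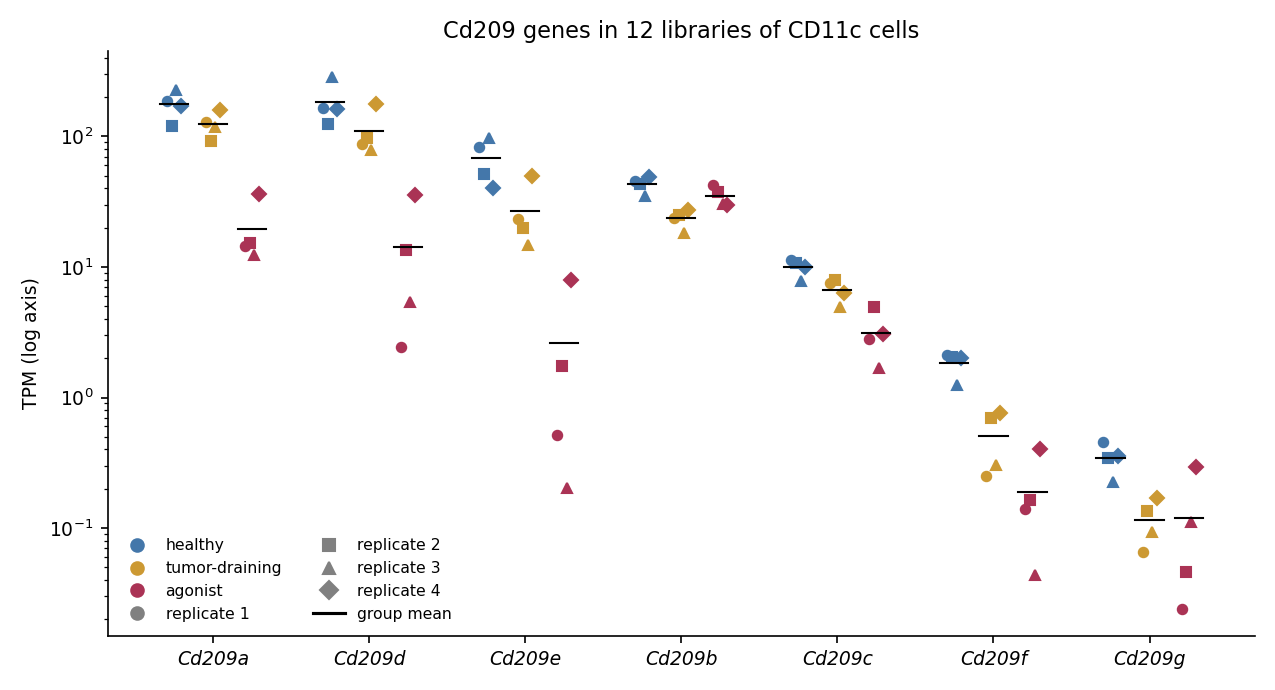
Level of each Cd209 gene in TPM (log axis) in the 12 libraries, with colours for the 3 groups, marker shapes for the replicate number and a black line for the group mean (n = 4). Cd209a, Cd209d and Cd209e lie lower in the agonist libraries. Cd209b lies between 29.8 and 42.4 TPM there, above its 18.3 to 27.4 TPM in tumor-draining libraries. In counts scaled for library depth, the agonist and tumor-draining libraries of Cd209b overlapped.

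Cd209a encodes the mouse lectin that carries the name DC-SIGN. In CPM (estimated counts after scaling for library depth) replicates 1 to 4 had 290.5, 151, 330.3 and 239 in healthy nodes, 203, 121, 169 and 239 in tumor-draining nodes, and 24.8, 20.9, 18.4 and 50.9 with the agonist. All 4 agonist libraries lay far below the 8 others, which overlapped. The mean was 183 ± 50.3 CPM in tumor-draining and 28.7 ± 15.0 CPM in agonist libraries, a log2 fold change of -2.67 (SE 0.34), and the change within the 4 prefixes ran from -3.20 to -2.23. Between tumor-draining and healthy nodes (253 ± 77.4 CPM) the log2 fold change of Cd209a was -0.47 (SE 0.32, adjusted p = 0.760, edgeR). It was lower in 4 of 4 prefix pairs, in replicate 4 by less than 0.01 on the log2 scale, and did not pass. The 4 annotated Cd209a transcripts kept their proportions, with Cd209a-201 holding 79.4% to 84.8% of the gene's counts in every library. Of 11 markers of type 2 dendritic cells, which can carry Cd209a, edgeR called 3 lower with the agonist, beside 0.830% of all genes. The other 8 were not called. The part of these cells in the difference was not tested. In bulk samples, fewer cells of a type and less RNA per cell cannot be told apart.

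Cd209d (SIGNR3) and Cd209e (SIGNR4) are its neighbours in the cluster. Cd209d had 170, 104, 271 and 152 CPM in healthy, 92.4, 86.6, 74.0 and 175 CPM in tumor-draining, and 2.81, 12.1, 5.45 and 32.7 CPM in agonist libraries. Cd209e had 189.9, 97.9, 209.8 and 83.9 CPM in healthy, 55.2, 39.6, 31.4 and 109 CPM in tumor-draining, and 1.30, 3.59, 0.443 and 16.1 CPM in agonist libraries. For both genes the agonist libraries lay below all others, and replicate 4 was the highest of its group in tumor-draining and in agonist nodes. Within the agonist group Cd209e spanned 36.4-fold and Cd209d 11.6-fold, against 2.77-fold for Cd209a and 1.82-fold for Cd209b.

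The log2 fold change between agonist and tumor-draining libraries was -3.01 (SE 0.67) for Cd209d and -3.45 (SE 0.92) for Cd209e. Without agonist replicate 4 these values were -3.99 and -5.07, and that of Cd209a was -3.12. Agonist replicate 4 thus held more RNA of these 3 genes than the other agonist libraries, and its own change from tumor-draining replicate 4 was -2.42 for Cd209d and -2.75 for Cd209e. Between tumor-draining and healthy nodes the log2 fold change was -0.70 (SE 0.62, adjusted p = 0.804) for Cd209d and -1.31 (SE 0.84, adjusted p = 0.753) for Cd209e by the same test, and neither passed. Replicates 1 to 3 were lower in tumor-draining nodes for both genes, and replicate 4 was higher, by 0.20 and 0.38 on the log2 scale.

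Cd209b (SIGNR1), a lectin known for binding microbial polysaccharides and dextran, took a different course. Replicates 1 to 4 had 101, 79.5, 75.2 and 99.5 CPM in healthy, 55.2, 49.3, 40.1 and 59.0 CPM in tumor-draining, and 107, 76.2, 64.8 and 58.8 CPM in agonist libraries. Every tumor-draining library lay below every healthy one, and the agonist libraries spread from the level of the tumor-draining to that of the healthy group. Between tumor-draining (50.9 ± 8.25 CPM) and healthy nodes (88.9 ± 13.5 CPM) the log2 fold change was -0.80 (SE 0.19), with -0.91 to -0.69 within the 4 prefixes. It did not pass without the prefix (adjusted p = 0.112) and passed with the prefix as a block (adjusted p = 0.0102, edgeR's quasi-likelihood test). This comparison shares the tumor-draining libraries with the comparison on which the members were chosen. Between agonist (76.8 ± 21.5 CPM) and tumor-draining libraries the log2 fold change of Cd209b was 0.59 (SE 0.19), higher in replicates 1, 2 and 3 by 0.96, 0.63 and 0.69, and about equal in replicate 4 (-0.00447). Of 14 tested macrophage markers, edgeR called 6 higher and 1 lower with the agonist, beside 1.85% and 0.830% of all genes, and 7 were not called. Their part in the course of Cd209b was not tested. Cd209b-201 held 71.4% to 80.3% of the gene's counts in every library.

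**Figure D2:**
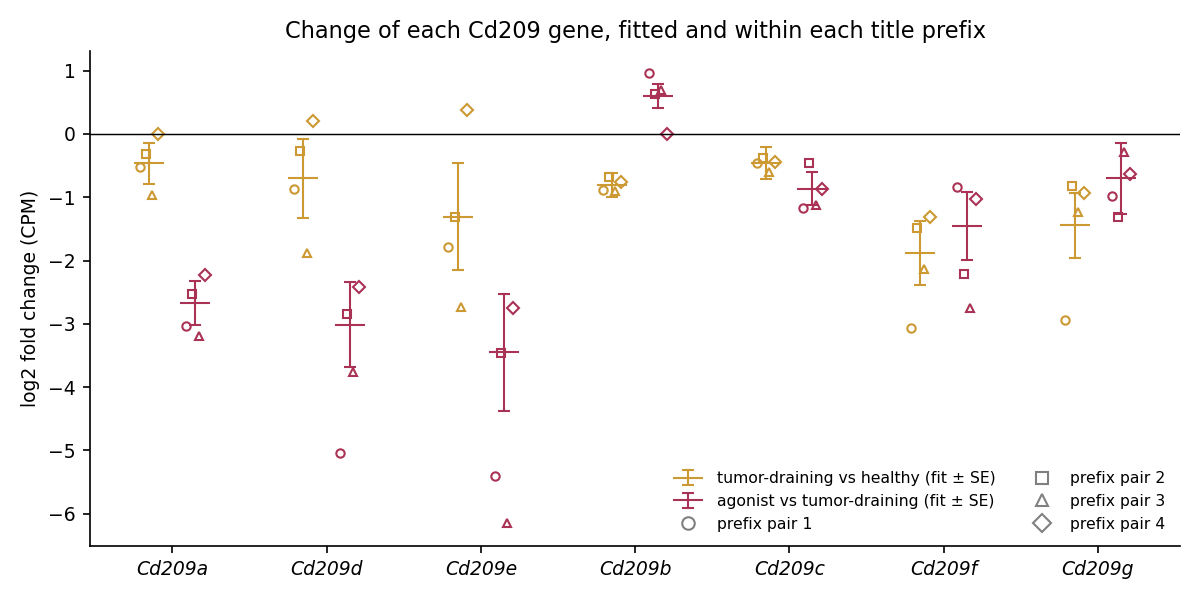
Log2 fold change of each Cd209 gene between tumor-draining and healthy libraries (yellow) and between agonist and tumor-draining libraries (red). Bars are the fitted change ± SE over 12 libraries and open markers are the change within each title prefix. Cd209b is the gene whose fitted change with the agonist lies above 0 (0.59), and the prefixes of Cd209e with the agonist range from -6.15 to -2.75.

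Cd209c (SIGNR2), Cd209f (SIGNR8) and Cd209g (SIGNR7) were less abundant. Cd209c had 17.3, 14.1, 10.6 and 12.1 CPM in healthy, 12.6, 10.8, 7.02 and 8.91 CPM in tumor-draining, and 5.57, 7.87, 3.21 and 4.90 CPM in agonist libraries. It was lower at each step within each of the 4 prefixes from healthy to tumor-draining to agonist nodes, although neighbouring groups overlapped. The log2 fold change was -0.46 (SE 0.26, adjusted p = 0.714 by edgeR's quasi-likelihood test) between tumor-draining and healthy nodes and -0.87 (SE 0.26) between agonist and tumor-draining nodes.

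The transcripts of Cd209c did not move alike with the agonist, an observation made after their values were seen. Cd209c-201, the coding transcript that holds the gene's stretches shared with 37 other genes (27.24% of its own), averaged 11.6 ± 2.95, 8.68 ± 2.27 and 5.21 ± 1.79 CPM in the 3 groups, and the log2 ratio of its agonist and tumor-draining means was -0.74. Cd209c-202, a noncoding transcript with no stretch shared with another gene, averaged 1.38 ± 0.44, 0.92 ± 0.36 and 0.128 ± 0.134 CPM, a log2 ratio of -2.84. All Cd209c transcripts other than Cd209c-201 together gave -2.62, from 1.15 ± 0.25 to 0.188 ± 0.148 CPM. This sum is not free of shared stretches, which made up 28.82% of Cd209c-203, 11.42% of Cd209c-204 and 9.52% of Cd209c-205. Cd209c-201 made up 96.9% of the gene's estimated counts in agonist libraries and 88.0% in tumor-draining libraries. The part of read division in this difference was not tested.

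Cd209f had 3.47, 2.74, 1.85 and 2.88 CPM in healthy, 0.413, 0.976, 0.424 and 1.16 CPM in tumor-draining, and 0.232, 0.210, 0.0633 and 0.569 CPM in agonist libraries. Cd209g had 0.709, 0.308, 0.363 and 0.521 CPM in healthy, 0.0919, 0.173, 0.154 and 0.273 CPM in tumor-draining, and 0.0464, 0.0699, 0.127 and 0.175 CPM in agonist libraries. For both genes every tumor-draining library lay below every healthy library, and the agonist libraries overlapped with the tumor-draining ones. Their estimated counts were 97.2 to 142 for Cd209f and 11.2 to 29.1 for Cd209g in healthy nodes, and 3 to 25.7 and 1.74 to 8.31 with the agonist. Cd209g reached the count filter through its healthy libraries. The filter thus selected it for high healthy values, which favours a fall from them.

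Between tumor-draining and healthy nodes the log2 fold change was -1.88 (SE 0.50) for Cd209f, with an adjusted p of 0.188 without and 0.00861 with the prefix as a block (edgeR's quasi-likelihood test). For Cd209g it was -1.44 (SE 0.52, adjusted p = 0.425). Because their reads were divided between them, both were also summed, which gave -1.81 (adjusted p = 0.133) for that comparison and -1.29 between agonist and tumor-draining nodes. Taken singly the change with the agonist was -1.46 (SE 0.53) for Cd209f, -2.15 without agonist replicate 4, and -0.70 (SE 0.56) for Cd209g.

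Counted over the family, 0 of 7 members passed between tumor-draining and healthy nodes at an adjusted p under 0.05 (edgeR), where 0.198% of 23729 tested genes passed in either direction and 0.0169% were called lower. Cd209g is left out of the counts that follow, because it passed the filter through its high values in healthy nodes. At an unadjusted p under 0.05, 2 of the other 6 members (Cd209b and Cd209f) were lower, beside 7.76% of all genes in either direction. With the prefix as a block these 2 members passed, both lower (2.28% of all genes). DESeq2 called the same 2 members lower (0.163% of its genes) and limma voom called 0 (0% of all genes lower). In these 2 members the 4 tumor-draining libraries all lay below the 4 healthy ones, as they did in 1.69% of all genes, and 4 of the 6 members were lower in 4 of 4 prefix pairs (17.0% of all genes). The median log2 fold change of the 6 members was -0.75, and that of all tested genes -0.02.

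In the comparison behind the choice of members, agonist against tumor-draining nodes, edgeR placed 2 members among the 0.830% of all genes called lower, Cd209a and Cd209d. In 3 members (Cd209a, Cd209d and Cd209e) no agonist library reached a tumor-draining one (3.40% of all genes), and 6 members were lower in 4 of 4 prefix pairs (16.4%). The median over the 7 members was -1.46 and over all genes 0.02. Nothing is read from these counts, since the same values chose the members. Agonist and healthy nodes share the agonist libraries with that choice, and their log2 fold changes were -3.14 for Cd209a, -0.21 for Cd209b, -1.33 for Cd209c, -3.72 for Cd209d, -4.76 for Cd209e, -3.34 for Cd209f and -2.15 for Cd209g. By edgeR 5 members other than Cd209g were called lower there (2.03% of all genes), and in the same number all agonist libraries lay below all healthy ones (4.75% of all genes), while Cd209b overlapped. Summed to 1 feature before the fit, the 7 genes had log2 fold changes of -0.73, -1.66 and -2.38 in the 3 comparisons.

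How members varied together was described over the 12 libraries, which share prefixes across groups. On the log2 CPM scale the Pearson correlation was 0.97 between Cd209d and Cd209e, 0.96 between Cd209a and Cd209d, 0.96 between Cd209a and Cd209e, and -0.09 between Cd209a and Cd209b. These values include the group differences, among them the one that chose the members, so nothing is read from them. For deviations from the group means, which leave out the group differences, the correlation was 0.86, 0.72, 0.78 and -0.04 for the same pairs. It was -0.43 for Cd209b and Cd209d. Cd209a, Cd209d and Cd209e were thus high or low in the same libraries within groups as well, and Cd209b was not high or low with them.

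**Figure D3:**
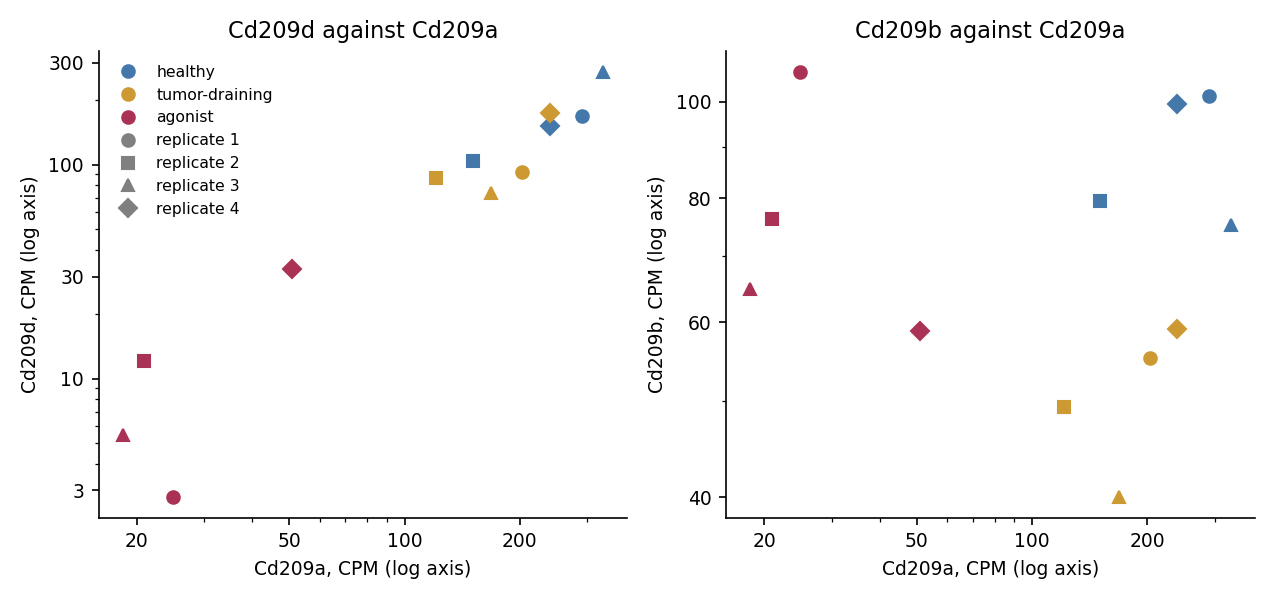
Cd209d (left) and Cd209b (right) against Cd209a in the 12 libraries, in CPM on log axes, with colours for the 3 groups and marker shapes for the replicate number. Cd209d is high where Cd209a is high (r = 0.96 on the log2 scale), and Cd209b is not (r = -0.09). Both values include the group differences, among them the one that chose the members. For deviations from the group means they were 0.72 and -0.04.

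Among 10587 other genes whose log2 CPM averaged 2 or more, those most like Cd209a over the 12 libraries were Cd200r1 (r = 0.98), Nrep, Chil5, Pid1 and Abca6 (each 0.97 or 0.98). Cd200r1, the inhibitory receptor for CD200, averaged 44.7 ± 11.5, 33.1 ± 5.14 and 10.1 ± 0.81 CPM in healthy, tumor-draining and agonist libraries. For deviations from the group means the 5 most like Cd209a were Cd163 (0.94), Cd300lg, Lrrc8a, Ldlrad3 and Ugt1a7c. Those most like Cd209d were Pla2g4f (0.98), Apod, Pi16, Ngfr and Cd209e itself, and by deviations Cldn1 (0.96), Pla2g4f, Scpep1, Ngfr and Dkkl1. Ngfr, the p75 neurotrophin receptor, averaged 55.4 ± 36.6, 48.3 ± 28.6 and 4.36 ± 5.76 CPM in the 3 groups. For Cd209b the closest genes reached lower values on the log2 CPM scale, 0.80 for Scmh1 and 0.79 to 0.80 for Trim17, Pbx3, Cpt1c and Mroh2a, and by deviations they were Lyrm9 (0.96), Yipf1, Ndufb2, Uckl1 and Atat1. None of these 10 genes was among those closest to Cd209a or Cd209d. The lists of Cd209a and Cd209d shared no gene with each other either. Each list holds only 5 of 10587 genes, so nothing is read from the lack of overlap.

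The genes around the cluster were tested because position, not response, selects them. Within 200 kb of it, 44 other genes are annotated and 31 were tested. Between tumor-draining and healthy nodes 0 of the 31 passed by edgeR, also with the prefix as a block, at an unadjusted p under 0.05, by DESeq2 and by limma voom. Between agonist and tumor-draining nodes 3 were lower and 1 higher (4 and 2 with the block), beside 0.830% and 1.85% of all genes. The lowest were the pair next to Cd209a. Clec4g, the lectin LSECtin and a relative of the CD209 proteins, had 3.72, 4.53, 3.22 and 6.64 CPM in tumor-draining and 0.766, 1.19, 1.10 and 2.06 CPM in agonist libraries, groups that did not overlap. It fell by 1.82 on the log2 scale (SE 0.34, adjusted p = 0.0103, edgeR's quasi-likelihood test).

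Gm16553, annotated as antisense and overlapping Clec4g on the opposite strand, fell from 1.89 ± 1.10 to 0.403 ± 0.170 CPM (a log2 difference of -2.22 with an SE of 0.46, adjusted p = 0.0181). The library kit keeps the strand, but whether quantification used it is not stated, so reads of Gm16553 and Clec4g may not be separable. Trappc5, a vesicle tethering subunit, fell from 57.9 ± 12.6 to 32.9 ± 7.37 CPM (a log2 difference of -0.81 with an SE of 0.21, adjusted p = 0.0495). Fcer2a, the low-affinity IgE receptor CD23 and like the CD209 proteins a C-type lectin, rose from 23.2 ± 4.92 to 47.0 ± 11.6 CPM (a log2 difference of 1.02 with an SE of 0.25, adjusted p = 0.0417). Others did not pass, such as Map2k7 (-0.04), Timm44 (-0.01) and Elavl1 (-0.04). The median of the 31 genes was -0.04.

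**Figure D4:**
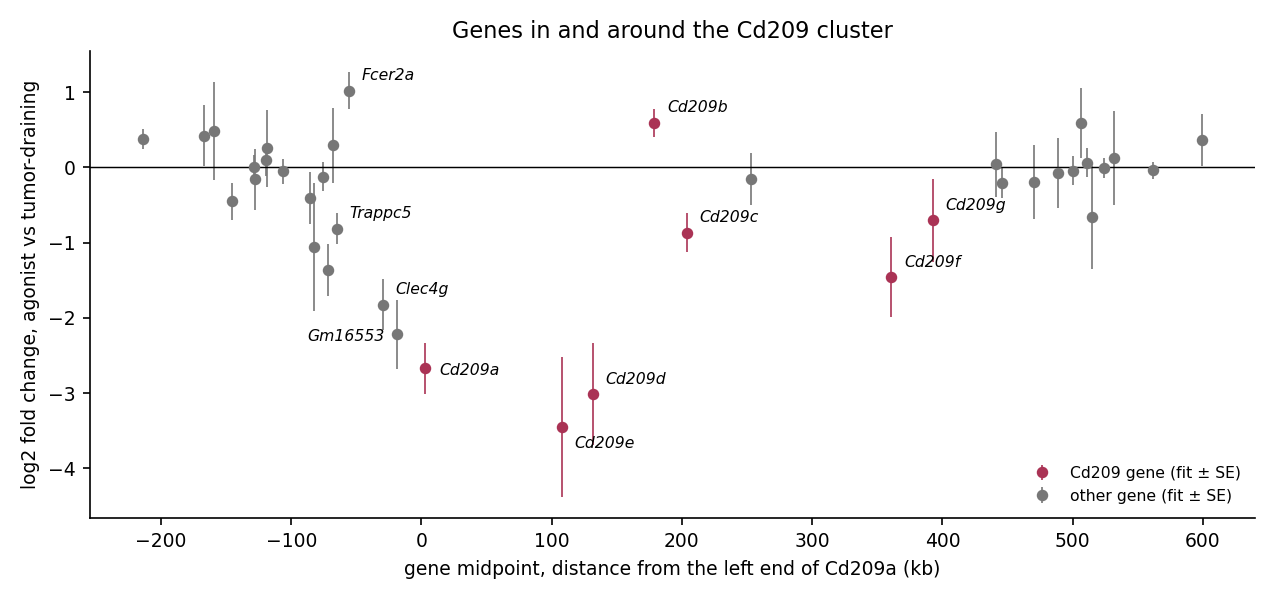
Fitted log2 fold change ± SE between agonist and tumor-draining libraries of the Cd209 genes (red) and the 31 tested genes within 200 kb of the cluster (grey), by distance of the gene's midpoint from the left end of Cd209a in kb. Gm16553 (-2.22) and Clec4g (-1.82) lie beside Cd209a (-2.67), and the grey genes on the right end of the cluster lie within 0.67 of 0.

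Genes of the pathway were counted in lists chosen with earlier results of these data known. In the lists of signaling, ligands, inputs, IL-4 response and other lectins, 1 gene passed between tumor-draining and healthy nodes, Clec4a4. By limma voom none of these genes passed in that comparison, and DESeq2 called 3 of the IL-4 response list and 3 of the other lectins, all higher, and none of the remaining lists. Of the 15 genes of DC-SIGN signaling, none was called in that comparison by edgeR (4 at an unadjusted p under 0.05, 3 higher with the block). Between agonist and tumor-draining nodes 3 were higher (4 higher and 2 lower with the block), where 1.85% of all genes were called higher. Ikbke, the kinase IKK-epsilon, rose from 13.8 ± 1.38 to 27.5 ± 5.74 CPM (a log2 difference of 0.999 with an SE of 0.16, adjusted p = 0.0051). Src, a tyrosine kinase, rose from 60.8 ± 13.4 to 120.0 ± 30.3 CPM (0.98, SE 0.22, adjusted p = 0.0279), and Arhgef12, an activator of RhoA, from 41.9 ± 4.55 to 65.4 ± 13.4 CPM (0.64, SE 0.15, adjusted p = 0.0326). Lsp1, through which DC-SIGN is known to signal, did not pass (-0.19). The list's median was 0.08.

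Of 4 protein ligands of CD209 lectins (Icam2, Ceacam1, Itgam and Itgb2), none was called in either comparison by edgeR (1 between tumor-draining and healthy nodes at an unadjusted p under 0.05 and with the block; none by DESeq2 or limma voom in either comparison). Icam2, which binds DC-SIGN on endothelium, averaged 6.37 ± 0.62, 6.22 ± 1.37 and 6.37 ± 1.20 CPM in healthy, tumor-draining and agonist libraries. The cytokines IL-4 and GM-CSF induce DC-SIGN on monocyte-derived cells. Of 13 tested genes of these pathways, none was called between tumor-draining and healthy nodes by edgeR (1 at an unadjusted p under 0.05, 2 higher with the block), and 1 was lower with the agonist (3 lower and 3 higher with the block). Klf4, a transcription factor of some type 2 dendritic cells, went from 64.9 ± 25.1 down to 29.8 ± 4.61 CPM (adjusted p = 0.0264, log2 fold change -1.13, SE 0.25). Il4ra (0.45, adjusted p = 0.170; 0.0329 with the block), Stat6 (-0.05, adjusted p = 0.975), Spi1 (-0.09, adjusted p = 0.960) and Irf4 (-0.44, adjusted p = 0.307; 0.0202 with the block) did not pass, and Il13 was too low to be tested.

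Of 12 IL-4 response genes of myeloid cells, none was called between tumor-draining and healthy nodes by edgeR (2 higher with the block). At an unadjusted p under 0.05, 6 were higher and 1 lower there, beside 7.76% of all genes in either direction. The list's median log2 fold change was 1.35 there and -1.37 between agonist and tumor-draining nodes. With the agonist 2 genes were called lower (3 lower and 1 higher with the block). These 2 are galactose-type lectins that also belong to the list of other C-type lectins. Clec10a fell from 93.8 ± 24.6 to 40.4 ± 6.56 CPM (a log2 difference of -1.22 with an SE of 0.21, adjusted p = 0.0070) and Mgl2 from 124 ± 49.1 to 43.3 ± 12.8 CPM (-1.52, SE 0.28, adjusted p = 0.0102), each in 4 of 4 prefix pairs. Mrc1, the mannose receptor, averaged 89.5 ± 61.4 and 34.5 ± 14.6 CPM and did not pass (-1.37, adjusted p = 0.143). Of the 20 tested genes among other myeloid C-type lectins, 4 were lower with the agonist (Clec10a, Mgl2, Clec4g and Clec9a) and 2 higher (8 and 2 with the block). Ly75, the uptake receptor DEC-205, rose from 247 ± 25.4 to 436 ± 65.8 CPM (0.82, SE 0.15, adjusted p = 0.0076), and Clec4e, the glycolipid receptor Mincle, from 12.9 ± 3.42 to 44.3 ± 16.9 CPM (1.78, SE 0.33, adjusted p = 0.0107). Clec4f was at 0 in all libraries. Between tumor-draining and healthy nodes 1 of the 20 passed (8 with the block), Clec4a4, which rose from 4.45 ± 1.05 to 17.7 ± 5.99 CPM (1.99, SE 0.35, adjusted p = 0.0436).

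Some markers of cells that could carry CD209 lectins moved with the agonist, and their part in the members' changes was not tested. Between agonist and tumor-draining nodes edgeR called 0.830% of all genes lower and 1.85% higher. Of 11 markers of type 2 dendritic cells, 3 were lower with the agonist (Clec10a, Mgl2 and Cd7; 5 with the block), and their summed level was 644 to 829, 685 to 918 and 435 to 686 TPM in healthy, tumor-draining and agonist libraries. Of 10 monocyte markers 2 were lower and 1 higher, with sums of 1993 to 2708, 2317 to 2764 and 2806 to 4429 TPM. Most of these sums was 1 gene, Lyz2, with 1503 to 2265, 1927 to 2205 and 2478 to 3924 TPM. The sums therefore do not show the markers rising together. Ccr2, the monocyte chemokine receptor, fell from 363 ± 64.5 to 132 ± 11.1 CPM (a log2 difference of -1.46 with an SE of 0.17, adjusted p = 0.0008). No marker of either list was at 0.

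Of 14 tested macrophage markers 6 were higher with the agonist and 1 lower (2 lower with the block), with sums of 345 to 541, 444 to 758 and 854 to 1210 TPM in healthy, tumor-draining and agonist libraries. Most of these sums came from C1qa, C1qb and C1qc. C1qa alone had 78.7 to 154, 117 to 249 and 258 to 353 TPM in the 3 groups. The sums therefore do not show the markers rising together. No macrophage marker was called between tumor-draining and healthy nodes by edgeR (5 higher and 3 lower at an unadjusted p under 0.05, 2 higher and 2 lower with the block) or by limma voom, and DESeq2 called 1 higher and 1 lower. Vsig4 was near 0 and was not tested. Siglec1, the sialic acid receptor of sinus macrophages, had 35.8, 43.8, 50.3 and 54.6 CPM in tumor-draining and 137, 117, 270.2 and 153 CPM in agonist libraries (a log2 difference of 1.88 with an SE of 0.23, adjusted p = 0.0012). Marco, a scavenger receptor of medullary macrophages, was 40.5 ± 4.22 CPM in healthy, 23.2 ± 4.98 in tumor-draining and 66.6 ± 16.8 in agonist libraries. Its change with the agonist was 1.52 (SE 0.19, adjusted p = 0.0013), and against healthy nodes the tumor-draining libraries all lay lower (-0.81, SE 0.19, adjusted p = 0.115; 0.0353 with the block). The marker that went down was Cd163, the haemoglobin scavenger receptor, from 9.85 ± 2.61 to 3.45 ± 1.57 CPM (-1.51, SE 0.29, adjusted p = 0.0113). Cd163 was also the gene closest to Cd209a by deviations from the group means.

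The remaining marker lists are given as counts between agonist and tumor-draining nodes. There edgeR called 1.85% of all genes higher and 0.830% lower without the block. The share of all genes called with the block is not given here, so the block counts have no such measure beside them. Of 10 markers of migratory and mature dendritic cells 5 were higher (9 with the block). Of 8 markers of type 1 dendritic cells 1 was lower (6 lower and 1 higher with the block), and of 5 Langerhans cell markers 1 was lower (2 with the block). Of 8 B cell markers 1 was higher (Fcer2a; 3 with the block), as was 1 of 6 natural killer cell markers (3 with the block). Of 6 plasmacytoid dendritic cell, 6 tested neutrophil, 8 T cell and 12 stromal and endothelial markers, edgeR called none. At an unadjusted p under 0.05 there were 2, 1, 1 and 3, and with the block 4, 0, 1 and 1. DESeq2 called 1 T cell marker lower and none of the others, and limma voom called none. Neutrophil markers summed to 10.4 to 15.4 TPM in healthy, 22.4 to 151 TPM in tumor-draining and 27.3 to 139 TPM in agonist libraries.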

How the data were processed

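Per the submitters' processing notes the authors quantified transcripts with Salmon on mm10; the name of both deposited tables says sailfish, a related program. The deposited estimated counts are not normalized, and the deposited TPM values are scaled by the authors to a common total. Program version, annotation, strand setting and filters: not given in the sources used here. Of 132374 transcripts, 131974 matched GENCODE M21 (GRCm38) by identifier and were summed to 52355 genes; the 400 others held 0.116% to 0.147% of a library. Sums were rounded for tests.

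The test was that of edgeR 4.0.16 under R 4.3.3 (robust quasi-likelihood fit, TMM scaling, filterByExpr with a minimum count of 10, 23729 genes, 12 libraries, group as the only term, Benjamini-Hochberg adjustment over all genes, threshold 0.05). All 7 members passed the filter. CPM and fold changes come from these counts, with a prior count of 2 in log values. No 2 libraries of a group agreed within sampling noise (lowest chi-square per degree of freedom 27.7). Deviations from group means correlated at 0.20 to 0.47 (median 0.39) in the 12 library pairs of 1 title prefix. In the 36 others they correlated at -0.45 to 0.33 (median -0.24), so the ranges overlapped. From the medians the prefix was taken as a pairing. The fit with the prefix as a block left 6 residual degrees of freedom in place of 9. The test was checked on simulated data.

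The members and lists were chosen with earlier results of these data known. Named genes are the members, genes within 200 kb, the 5 genes most correlated with Cd209a, Cd209b and Cd209d by either measure, up to 4 called genes of each list, and a fixed set (Itgax, Clec10a, Mgl2, Mrc1, Siglec1, Il4ra, Irf4, Klf4, Icam2, Clec4g and Fcer2a). Lsp1, Stat6, Spi1, Ceacam1, Itgam and Itgb2, the transcripts of Cd209c, Clec4e, Clec9a, C1qa, C1qb, C1qc, and Cd163 and Marco beside the members were named after their values were seen. Alternatives were other scaling, filters, tools (DESeq2 1.42.0, limma 3.58.1), TPM with pseudocounts of 0.1 and 1, protein-coding transcripts, 8 libraries per fit, and leaving out each library. Stretches of 31 bases were compared over the deposited transcripts' GENCODE sequences.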

Additional observations from a re-analysis of the deposited data

How the results depend on the processing

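Between tumor-draining and healthy nodes no member's fold change was reversed under any alternative run, 144 single-member values kept their side of the threshold and 4 came to pass, those of Cd209b and Cd209f with the block and by DESeq2. The prefix pairs the libraries, and with the prefix as a replicate block the number of members called lower went from 0 to 2 between tumor-draining and healthy nodes and from 2 to 4 between agonist and tumor-draining nodes; it stayed 6, Cd209g included, between agonist and healthy nodes. DESeq2 also gave 2 and 4. Between tumor-draining and healthy nodes the share of all genes called lower was 0.0169% without the block, 2.28% with it and 0.163% by DESeq2. The gain in members called there thus came with a gain over all genes. For the other counts under alternatives the share of all genes is not given here, so they have no such measure beside them. For agonist against tumor-draining nodes, size factors of the RLE kind, no count filter, and only the 8 libraries compared each gave 1, while limma voom, limma on TPM and protein-coding transcripts gave 3. Leaving out 1 library in turn gave 0 to 0 members between tumor-draining and healthy nodes, 1 to 3 between agonist and tumor-draining nodes, and 4 to 6 between agonist and healthy nodes. In the second of these the highest, 3, came without agonist replicate 4. The counts for agonist against tumor-draining nodes show how a number of calls moves with the processing and are no evidence of stability, because that comparison chose the members. For Cd209f and Cd209g, whose agonist counts were 3 to 25.7 and 1.74 to 8.31, depth limits what can be said of their change. The causes of these shifts were not tested.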
